A study of Homo sapiens with 10 samples.

Results

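To determine whether the cytokine TWEAK shifts the H3K27ac landscape alike in 2 HER2 breast cancer lines, its effect was compared at the genomic regions that both lines acetylate. The H3K27ac ChIP-seq peaks called in the lines, SKBR3 and MDA-MB-453, were merged over all 8 deposited peak lists, and the regions that every list held were kept. Of 76044 merged regions on chromosomes 1 to 22 and X, 17704 (23.3%) were present in all 8 lists. They were thus chosen by peak calls in these same libraries, so presence itself is no result here. Within each list these regions were ranked by the authors' peak score (10 times the −log10 q, the column the lists carry), and the rank was put on a percentile scale from 0 to 100, where 100 is the highest region of that list. The shift of a line is its mean percentile with TWEAK minus its untreated mean, in percentile points. The SKBR3 shift minus the MDA-MB-453 shift is the difference of differences, which is positive where a region moved up more in SKBR3.

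Each line had 2 untreated libraries and 2 libraries of cells given 10 ng/ml TWEAK for 48 h, with fresh ligand at 24 h. Per the labels, all groups, the untreated ones included, were starved of serum for 8 h. Both are established human breast cancer lines with amplified ERBB2, so each stands for 1 genetic background. The labels do not say which replicates are separate cultures, although the study's methods speak of biological replicates, and p-values measure the spread between these libraries. A peak lay at most 1 kb from the annotated transcription start (TSS) of ERBB2, GRB7, EPCAM, KRT8, KRT18, KRT19, GATA3 and FOXA1 in 8 of 8 lists. None of the 8 lists had one at PTPRC, CD3E, PECAM1, COL1A2 or PDGFRB, whereas COL1A1, a fibroblast collagen gene in that list of other cell types, had one in all 8.

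TWEAK is a ligand of the TNF family that binds Fn14, a small receptor encoded by TNFRSF12A. The receptor recruits TRAF adaptors and cIAP ubiquitin ligases, through which both branches of NF-κB signalling and the JNK and other MAP kinase cascades are engaged. NF-κB dimers and AP-1, a dimer of FOS and JUN family proteins, bind short DNA motifs in promoters and enhancers. H3K27ac is deposited by p300 and CBP at active promoters and enhancers, so a change in its rank at a region is a relative change in that mark among the regions compared.

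The sequences of 5 regions are shown first, because they hold NF-κB or AP-1 motifs. These regions lie among the 10 highest or 10 lowest for the difference of differences over its moderated SE, described further on. The sequences are hg38 plus strand windows within the 1000 bp around a region's midpoint, named by the nearest protein-coding TSS. NF-κB and AP-1 matches are in capitals. AP-1 was searched as TGACTCA or TGAGTCA and NF-κB by its 10-letter consensus, on both strands and with overlaps allowed. Over all 17704 shared regions, 17.9% held an AP-1 match and 15.8% an NF-κB match in that window. The 3 windows with a positive difference of differences come from chr20:49930015-49930163 (RNF114), chr6:45591470-45591613 (RUNX2) and chr1:14732846-14732932 (KAZN), and 1 further NF-κB match of the KAZN region lies outside its window.
RNF114: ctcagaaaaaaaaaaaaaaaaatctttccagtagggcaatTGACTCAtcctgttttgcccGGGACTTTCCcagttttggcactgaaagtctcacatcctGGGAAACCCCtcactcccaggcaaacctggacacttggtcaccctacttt
RUNX2: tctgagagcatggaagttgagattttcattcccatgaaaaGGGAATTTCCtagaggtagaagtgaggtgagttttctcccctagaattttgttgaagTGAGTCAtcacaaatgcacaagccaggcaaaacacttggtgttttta
KAZN: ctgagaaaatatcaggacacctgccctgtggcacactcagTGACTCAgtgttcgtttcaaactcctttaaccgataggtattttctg
The 2 windows with a negative difference of differences come from chr1:84690036-84690125 (SSX2IP) and chr17:2050186-2050419 (HIC1).
SSX2IP: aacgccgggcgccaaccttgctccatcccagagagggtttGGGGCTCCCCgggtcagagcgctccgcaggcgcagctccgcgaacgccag
HIC1: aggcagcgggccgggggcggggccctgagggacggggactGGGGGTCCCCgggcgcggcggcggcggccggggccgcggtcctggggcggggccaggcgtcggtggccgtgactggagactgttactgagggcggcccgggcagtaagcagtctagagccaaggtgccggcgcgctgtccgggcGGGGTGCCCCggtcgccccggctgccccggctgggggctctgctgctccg
The RNF114 window held 1 AP-1 match and 2 NF-κB matches within 149 bases, and the RUNX2 window held 1 of each. The SSX2IP and HIC1 windows held 1 and 2 NF-κB matches and no AP-1 match. A match is a description of the letters and not of binding.

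The lists differed in ways that touch every result. They held 36148 to 51687 peaks, and read depth is unknown. MDA-MB-453 libraries followed each other closely, with Pearson correlations of percentiles from 0.979 to 0.985 across the 17704 regions. SKBR3 libraries correlated with each other at 0.855 to 0.949. The SD of replicates was 8.08 percentile points in untreated and 8.87 in TWEAK-treated SKBR3 cells, against 3.58 and 3.75 in MDA-MB-453 cells. SKBR3 TWEAK replicate 2 stood apart from the other 3 SKBR3 lists: the median percentile of its promoter regions was 54.8 and that of its distal regions 43.96, whereas the other 3 had medians of 59.6 to 61.0 and 37.1 to 38.6. It also held the most peaks. Values without it are given for the leading regions and for those gene values beyond 10 points that leaving it out moved by more than 1.5 times.

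No region passed the test of the interaction. In limma with Benjamini-Hochberg adjustment over all 17704 regions, 0 regions (0%) had a larger SKBR3 shift and 0 (0%) a larger MDA-MB-453 shift at an adjusted p under 0.05, and the lowest adjusted p was 0.0876. At an unadjusted p under 0.05, 894 regions (5.05% of those tested) had a positive and 619 (3.5%) a negative difference of differences. The difference of differences had an SD of 10.6 points across regions, against 9.24 points from replicate differences alone. The count changed with the libraries that were kept, and the cause was not tested. Without SKBR3 TWEAK replicate 1, which leaves SKBR3 TWEAK replicate 2 as the lone sample of its group and assumes that it varies like the others, 182 regions were called with a larger SKBR3 shift and 74 with a larger MDA-MB-453 shift. Of those 182 regions, 164 were distal, and of those 74, 59 were at promoters. Leaving out SKBR3 untreated replicate 1 or 2 gave 3 and 1 calls with a larger SKBR3 shift, and leaving out any other library gave 0. Of the 20 regions described further on, 12 were among the calls without SKBR3 TWEAK replicate 1.

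The lines moved at different scales. The SKBR3 shift passed 20 points either way at 834 regions (4.71%), 653 of them upward, and the MDA-MB-453 shift at 22 regions (0.124%). The SD of the shift across regions was 9.77 points in SKBR3, where replicate differences alone give 8.49, and 4.35 in MDA-MB-453, where they give 3.66. The spread of the shifts thus went with the spread of the replicates in each line. Across the 17704 regions the shifts of the lines were close to unrelated (Pearson's r = 0.0172), and all points share the same 8 libraries. When the replicates of a line were compared, SKBR3 shifts taken from replicate 1 and from replicate 2 libraries correlated at r = 0.442 and MDA-MB-453 shifts at r = 0.142.

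**Figure D1:**
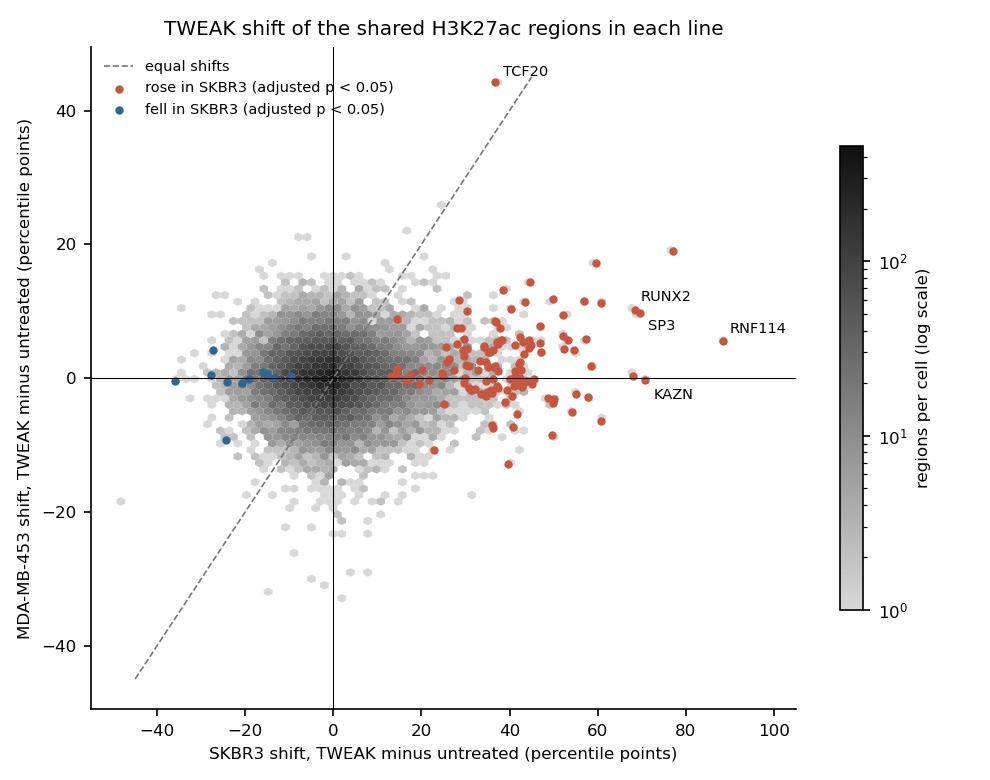
Shift of each of the 17704 shared regions with TWEAK in SKBR3 (x axis) and MDA-MB-453 (y axis), in percentile points; grey cells give the number of regions on a log scale, and coloured points mark the 126 regions that rose and the 11 that fell in SKBR3. The cloud is wider along the SKBR3 axis, and the TCF20 region is the only coloured point above the dashed line of equal shifts on the rising side.

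Within the lines, 126 regions (0.712%) rose and 11 (0.0621%) fell with TWEAK in SKBR3 cells at an adjusted p under 0.05 in the limma fit of all 8 libraries, while 0 (0%) rose and 0 (0%) fell in MDA-MB-453 cells, where 289 regions had an unadjusted p under 0.05. That fit gives both lines 1 estimate of the spread. It is lower than the SKBR3 libraries show on their own and higher than the MDA-MB-453 libraries show. With SKBR3 fitted alone by limma, 0 regions were called (lowest adjusted p = 0.312, and 1101 regions at an unadjusted p under 0.05). With MDA-MB-453 fitted alone, 3 were called, of which those near TCF20 and RNF187 rose and 1 other, far from any TSS, fell. In that fit 1585 regions (8.95%) had an unadjusted p under 0.05, more than the 1101 (6.22%) of SKBR3 fitted alone. The calls of the fit of all 8 libraries thus do not show that only SKBR3 responded. Here "rose" and "fell" refer to the fit of all 8 libraries. Of the 126 regions that rose in SKBR3, 125 had a difference of differences above 0, which their choice by the SKBR3 shift favours. The median shift of the 126 was 37.6 points in SKBR3 and 1.65 in MDA-MB-453. Without SKBR3 TWEAK replicate 2, 19 regions rose and 3 fell.

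These regions are described next by their starting level in MDA-MB-453. A larger SKBR3 shift at each level was largely fixed by how they were chosen. Of the 126 regions, 59 had an untreated MDA-MB-453 mean below the 25th percentile, and their median shifts were 39.0 points in SKBR3 and 4.26 in MDA-MB-453. For the 41 regions that lay between the 25th and 75th percentiles the medians were 40.8 and 1.61. The remaining 26 lay above the 75th percentile in untreated MDA-MB-453 cells, where a percentile has little room to increase. There the medians were 27.7 and 0.294 points, and on the log2 scale of the score, which has no upper limit, 1.45 and −0.07. The 126 regions were chosen by the SKBR3 contrast, so these medians are a description. Whether the limit of the percentile scale played a part was not tested. The 126 regions were also grouped by position. They fell into 120 loci at a spacing of 100 kb. The largest held 4 regions over 103 kb at chr6:137159561-137262545. This locus includes the TSS of IL22RA2, which encodes a soluble receptor that binds interleukin 22, and of IFNGR1, a subunit of the interferon gamma receptor. Its 4 regions had differences of differences from 25.1 to 58.2 points. PALLD, ITPR1 and TPM1 each had 2 regions that rose; palladin and tropomyosin 1 are actin-binding proteins, and ITPR1 is a calcium channel of the endoplasmic reticulum.

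The 10 regions with the highest moderated t for the interaction, which is the difference of differences over its moderated SE, were named by rule; none passed the test (limma adjusted p from 0.0876 to 0.131). Each of the 10 rose in SKBR3, as 126 of all 17704 regions (0.712%) did. Their choice by the interaction favours this, for across all regions the difference of differences followed the SKBR3 shift (Pearson's r = 0.912). Of the 10 regions, 9 were distal. An AP-1 or NF-κB motif was held by 6, with AP-1 in 4 and NF-κB in 5. Among the 10 lowest, described below, 4 held either motif, with AP-1 in 1 and NF-κB in 3. Of all distal regions 24.4% held an AP-1 and 11.8% an NF-κB match. The 10 lowest were mostly promoter regions, so the 2 counts describe sets of unlike class and are no contrast. The largest difference of differences of the 10 highest lay at chr20:49928314-49931052, outside genes and 5.35 kb from the TSS of RNF114, a ubiquitin ligase gene. Within 100 kb of it also start SPATA2 and, further away, SNAI1, which encodes a transcriptional repressor of epithelial genes. Its percentiles were 0.525 and 5.69 in untreated and 86.4 and 96.7 in TWEAK-treated SKBR3 cells. In MDA-MB-453 cells they were 6.45 and 11.9 untreated and 19.1 and 10.3 with TWEAK. The region thus went from the bottom to near the top of the SKBR3 lists and stayed below the 20th percentile in MDA-MB-453, where the groups overlapped. Its difference of differences was 82.9 ± 7.91 points (SE, n = 2 libraries per group, limma adjusted p = 0.0876), and 77.8 without SKBR3 TWEAK replicate 2. This is the region whose window holds an AP-1 match and 2 NF-κB matches close together.

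The KAZN region (chr1:14731472-14734424) is in an intron of KAZN, which encodes kazrin, a protein of desmosomes and the cell cortex. It had percentiles of 8.998 and 7.81 untreated and 71.5 and 86.7 with TWEAK in SKBR3 cells, against 10.2 and 0.921, then 4.04 and 6.40, in MDA-MB-453 cells. The difference of differences was 71.0 ± 8.38 points (SE, limma adjusted p = 0.0985). The SP3 region (chr2:173990397-173993643), 25.02 kb from the TSS of this zinc finger transcription factor gene, went from 21.8 and 18.9 to 86.0 and 94.0 in SKBR3 cells. In MDA-MB-453 cells it went from 5.63 and 5.61 to 10.6 and 19.95, so all TWEAK libraries lay above all untreated ones in both lines, by unequal amounts. An intronic region of RUNX2, a runt family transcription factor gene best known for bone formation, showed the same order (chr6:45588610-45594163). It had 29.7 and 26.4 untreated and 95.2 and 97.6 with TWEAK in SKBR3 cells, and 14.4 and 8.80, then 19.8 and 23.8, in MDA-MB-453 cells. Their differences of differences were 60.0 ± 7.36 (SP3) and 58.2 ± 6.76 points (RUNX2, both SE, limma adjusted p = 0.0985). Without SKBR3 TWEAK replicate 2 the values were 63.4 for KAZN, 56.0 for SP3 and 57.0 for RUNX2.

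Further regions named on this side started from other levels. The LOXHD1 region was already near the top of the MDA-MB-453 lists, with 98.3 to 99.2 in all 4 of them, while it went from 39.8 and 32.7 to 73.0 and 82.2 in SKBR3 cells. The MFSD4A region was similar, with 93.6 to 95.3 in MDA-MB-453 cells and a move from 77.3 and 77.4 to 94.7 and 95.4 in SKBR3 cells, so that TWEAK-treated SKBR3 reached the MDA-MB-453 level. For both of these regions a rank in MDA-MB-453 could hardly increase. On the log2 scale of the score their differences of differences were 1.95 (LOXHD1) and 1.40 (MFSD4A). The intronic KIAA1671 region was the only one of the 10 in which the lines separated in opposite directions, SKBR3 upward, as 608 of all 17704 regions (3.43%) did: 18.9 and 13.0 became 59.4 and 70.004 in SKBR3 cells, and 3.53 and 4.19 became 0.489 and 1.13 in MDA-MB-453 cells. The intronic regions of ARHGAP26 and of VASH2, a vasohibin gene tied to angiogenesis, had differences of differences of 50.5 ± 5.86 and 48.1 ± 6.59 points. IL22RA2, the only promoter among the 10, had 45.9 ± 6.34 points (SE in each case).

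**Figure D2:**
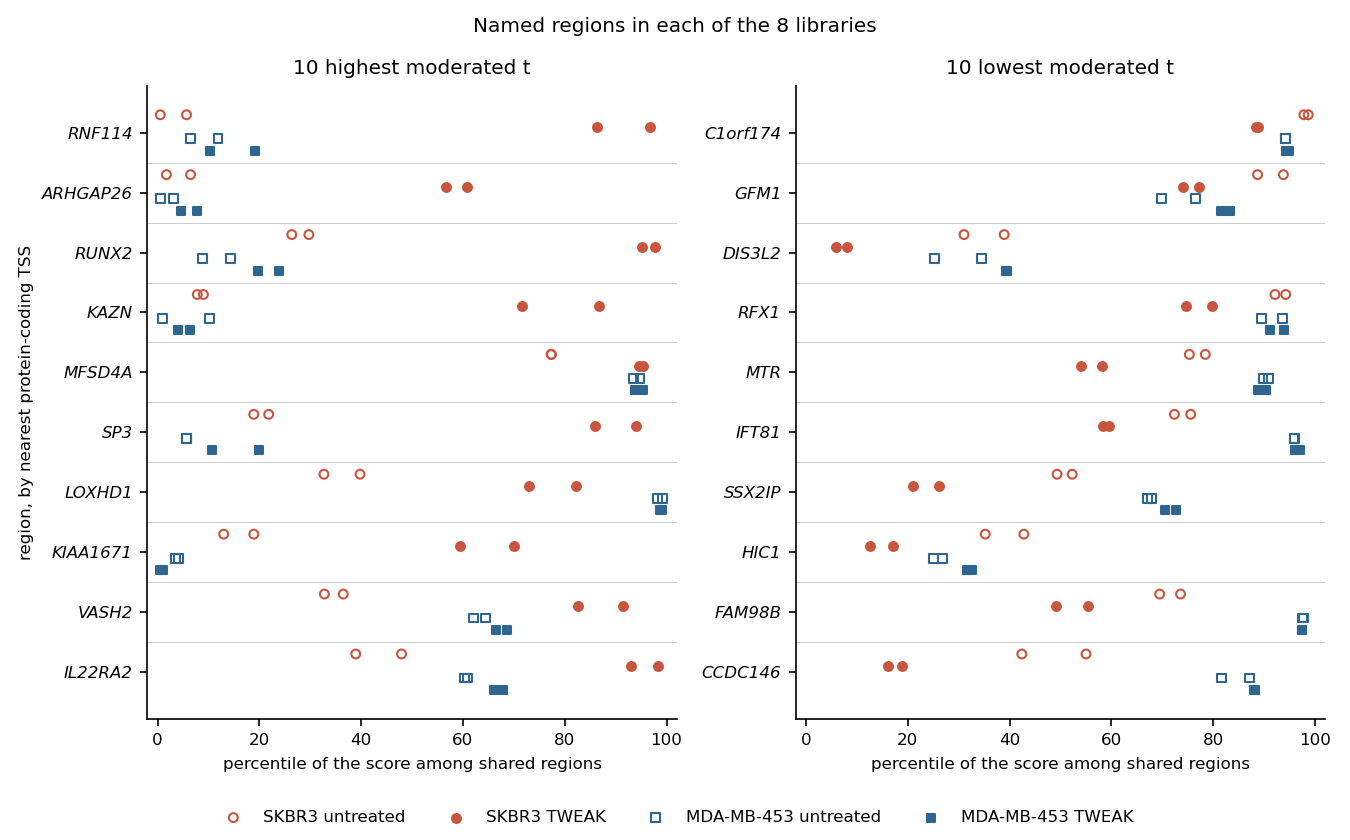
Percentile of the score in each library for the 10 regions with the highest (left) and the 10 with the lowest (right) moderated t of the interaction, named by nearest protein-coding TSS; open symbols are untreated and filled symbols TWEAK-treated libraries, circles SKBR3 and squares MDA-MB-453. The RNF114 region lies at 0.525 and 5.69 in untreated SKBR3 lists and at 86.4 and 96.7 after TWEAK.

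The 10 regions with the lowest moderated t were of another kind. Of these, 9 were promoter regions and 1, near HIC1, was distal, and none passed the test (limma adjusted p from 0.217 to 0.341). The differences of differences ran from −37.5 to −10.0 points, against 17.3 to 82.9 on the other side. In SKBR3 cells 6 of the 10 fell, as 11 of all 17704 regions (0.0621%) did, and their choice by the interaction favours this. The promoter region of DIS3L2, which encodes an RNA exonuclease that degrades uridylated RNA, had the most negative value (chr2:231961106-231962486). Its percentiles were 38.9 and 31.0 untreated and 5.90 and 8.08 with TWEAK in SKBR3 cells, and 25.3 and 34.4, then 39.4 and 39.3, in MDA-MB-453 cells. The groups separated in both lines and in opposite directions, and the difference of differences was −37.5 ± 7.12 points (SE, limma adjusted p = 0.260). The promoter region of CCDC146 (chr7:77121027-77123274) had 42.4 and 55.0 untreated and 16.0 and 18.9 with TWEAK in SKBR3 cells, against 81.6 and 87.2, then 88.0 and 88.3, in MDA-MB-453 cells. SSX2IP, the gene of a centrosome and cell junction protein, had 49.3 and 52.3, then 21.0 and 26.1, in SKBR3 cells, and 67.9 and 67.1, then 70.6 and 72.7, in MDA-MB-453 cells (chr1:84688624-84691740). Here too the separation was downward in SKBR3 and upward in MDA-MB-453.

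In the HIC1 region (chr17:2049271-2051134), 3.02 kb from the TSS of this transcriptional repressor gene, percentiles went from 42.8 and 35.2 to 17.1 and 12.5 in SKBR3 cells. They went from 25.1 and 26.9 to 31.6 and 32.5 in MDA-MB-453 cells. GFM1, which encodes a mitochondrial translation elongation factor, had −24.8 ± 4.47 points (SE), and MTR, the methionine synthase gene, −19.97 ± 3.97. In MTR the whole difference lay in SKBR3, which had 78.5 and 75.3, then 58.2 and 54.1, while MDA-MB-453 stayed between 88.7 and 90.9. The smallest value, at C1orf174, was also the most regular, with 98.7 and 97.8, then 88.8 and 88.4, in SKBR3 cells and 94.2 to 94.8 in MDA-MB-453 cells. Of the 10 regions, 7 separated downward in SKBR3 and upward in MDA-MB-453, a pattern that 713 of all 17704 regions (4.03%) had. The choice of the 10 by the lowest moderated t favours this pattern, so the 7 show no excess of it. Over all regions the reverse pattern, as at KIAA1671, was about as common. Separation in the same direction in both lines was found at 602 regions upward and 614 downward.

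In MDA-MB-453 most of the shifts beyond 20 points were downward. These regions were picked after their values had been seen, so no test is attached. Of the 22 regions, 17 went down and 5 up, and the largest shift of all, at TCF20, was upward. All 17 had a positive difference of differences, from 11.9 to 36.4 points. The MDA-MB-453 shift is subtracted in that value, so its sign was largely fixed by how the 17 were picked. The most negative lay near TMPO, a nuclear lamina gene, with 37.2 and 41.8, then 12.2 and 0.844, in MDA-MB-453 cells, and 8.13 and 3.11, then 1.43 and 11.9, in SKBR3 cells. Other examples were the promoter regions of SARS1, which encodes seryl-tRNA synthetase, SESN2, a regulator of mTORC1, and GPT2, an alanine aminotransferase of mitochondria. SARS1 went from 78.3 and 70.7 to 44.9 and 40.4 in MDA-MB-453 cells, and from 64.2 and 43.3 to 47.9 and 30.1 in SKBR3 cells, where the groups overlapped. SESN2 went from 50.2 and 52.3 to 23.4 and 32.3 in MDA-MB-453 cells. GPT2 went from 79.7 and 74.6 to 53.3 and 57.9 there. In the SKBR3 lists SESN2 and GPT2 differed more between replicates than between treatments. The region near KRT81, a keratin gene, had 75.3 and 70.2, then 50.4 and 53.8, in MDA-MB-453 cells and 99.2 to 99.4 in all SKBR3 libraries.

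Some regions, also picked after their values had been seen, moved up by like amounts in both lines. The TCF20 region (chr22:42356252-42361793), 12.6 kb from the TSS of this transcriptional coregulator gene, was the only one of the 126 regions that rose in SKBR3 with a difference of differences below 0. It had 54.0 and 44.02, then 83.2 and 88.1, in SKBR3 cells and 11.6 and 9.72, then 56.1 and 53.6, in MDA-MB-453 cells. The shifts were 36.7 and 44.2 points, and the difference of differences was −7.55 ± 7.52 points (SE, limma adjusted p = 0.821). NFKBIE, which encodes the NF-κB inhibitor IκBε, had a promoter region that went from 29.7 and 16.7 to 39.95 and 39.8 in SKBR3 cells. In MDA-MB-453 cells it went from 5.63 and 9.72 to 30.4 and 28.4. Its shifts of 16.7 and 21.7 points did not pass the test in either line (limma adjusted p = 0.195 and 1). In both genes every TWEAK library lay above every untreated library of its line.

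Promoter and distal regions parted in the interaction. Promoter regions, which lay within 1 kb of a protein-coding TSS, made up 9019 of the shared regions (50.9%), and the other 8685 were distal. The median difference of differences was −3.24 points at promoter regions and 2.38 at distal regions. In SKBR3 the median shifts were −2.66 and 1.46 points, and in MDA-MB-453 they were 0.419 and −0.487, so the lines had opposite signs in each class. Among promoter regions 135 (1.5%) had a positive and 463 (5.13%) a negative difference of differences at an unadjusted p under 0.05. Among distal regions the counts were 759 (8.74%) and 156 (1.8%). Promoters made up 70.1% of the decile of regions with the lowest difference of differences and 14.8% of the highest decile. The mean GC content of the 1000 bp window was 57.2% and 44.6% in these deciles. Ranked within 20 classes of GC content, a setting also added later, the promoter shares were 48.4% and 26.7%, and the medians were −1.27 points at promoter and 0.480 at distal regions.

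This parting moved with the library that stood apart. Without SKBR3 TWEAK replicate 2 the medians were −1.29 points at promoter and 0.842 at distal regions, and without SKBR3 TWEAK replicate 1 they were −4.95 and 3.84. In the libraries numbered 1 the medians were −1.30 and 1.24 points, and in those numbered 2 they were −4.91 and 3.85. The sign was thus the same in both sets and the size was not. Promoter and distal regions share each library's ranking, so that a lower rank of one class is a higher rank of the other. With the classes ranked separately, a setting added after these medians were seen, the medians were −0.383 and −0.774 points; that ranking centres each class in every library, so values near 0 follow from it and it is no check of the parting. Whether chromatin, enrichment or depth set the level of that library was not tested.

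**Figure D3:**
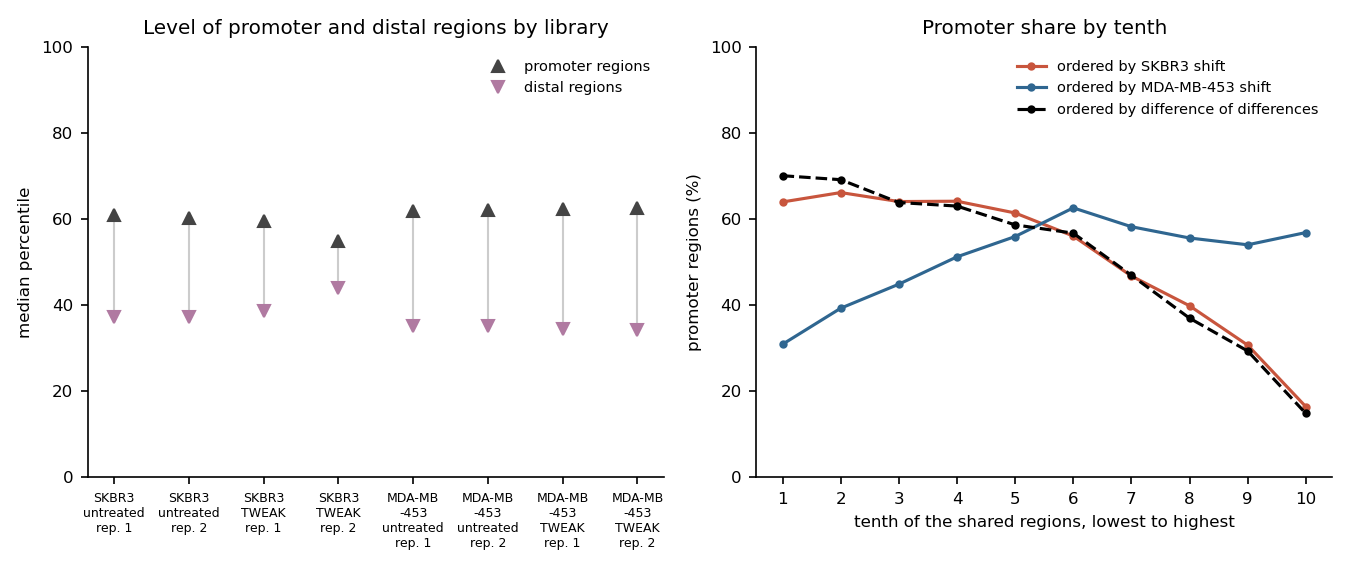
Left, median percentile (y axis, 0 to 100) of the 9019 promoter and 8685 distal regions in each of the 8 libraries; right, percentage of promoter regions in each decile of the shared regions ordered by the SKBR3 shift, the MDA-MB-453 shift or the difference of differences. SKBR3 TWEAK replicate 2 has the narrowest gap, 54.8 against 43.96, and the promoter share goes from 70.1% to 14.8% along the difference of differences.

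AP-1 motifs followed the interaction within distal regions. Of the 8685 distal regions 24.4% held an AP-1 match in the 1000 bp window. In the decile with the lowest difference of differences the share was 16.6% (144 of 869, Wilson 95% interval 14.2 to 19.2), and in the highest decile 35.3% (307 of 869, 32.2 to 38.6). Along the SKBR3 shift the shares of these deciles were 16.0% and 36.2%, whereas along the MDA-MB-453 shift they were 23.1% and 25.1%, with overlapping intervals. The intervals cover counting error only, and neighbouring regions of 1 set of libraries are not independent. From the libraries numbered 1 alone the shares along the difference of differences were 22.1% and 29.6%, and from those numbered 2 they were 16.6% and 36.7%. Without SKBR3 TWEAK replicate 2 they were 19.3% and 33.3%, and without SKBR3 untreated replicate 2, the library that moved them most, 21.1% and 29.6%. Within each quartile of GC content the highest quintile held more AP-1 matches than the lowest, from 20% against 34.9% in the quartile poorest in GC to 12.2% against 25.1% in the richest.

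For NF-κB motifs the shares along the difference of differences were 14.5% in the lowest and 15.3% in the highest decile of distal regions, with overlapping intervals, against 11.8% of all distal regions. From the libraries numbered 1 they were 10.7% (Wilson 95% interval 8.82 to 12.9) and 15.7% (13.4 to 18.2), and from those numbered 2 they were 15.1% and 14.7%, so the replicates differed here. Along the SKBR3 shift the lowest and highest deciles held 12.7% (10.6 to 15.0) and 17.0% (14.7 to 19.7), whose intervals overlapped. The libraries numbered 1 gave 10.6% and 16.7% and those numbered 2 gave 13.7% and 16.3% along that shift. The intervals were apart along the MDA-MB-453 shift, with 10.6% (8.71 to 12.8) and 16.9% (14.6 to 19.6). In MDA-MB-453 both replicates had this order, with 10.4% and 14.96% from the libraries numbered 1 and 10.4% and 16.8% from those numbered 2. Of the 126 regions that rose in SKBR3, 55 (43.7%) held an AP-1 and 33 (26.2%) an NF-κB match. Among the other motifs searched in distal regions, the shares of the lowest and highest decile along the difference of differences were 22.9% and 32.3% for the STAT motif TTCNNNGAA and 36.4% and 49.9% for the GATA motif AGATAA. For the TFAP2 motif GCCNNNGGC, which is rich in G and C, they were 40.6% and 23.2%, while for the FOXA motif TGTTTAC they were 22.7% and 21.2%. The TEAD motif GGAATG (47.8% and 49.6%) and the antioxidant response core TGACNNNGC (33.7% and 33.5%) differed by less than their intervals. E-boxes, CACGTG, were at 15.1% and 9.55%, and CRE (TGACGTCA), GRHL (AACCGGTT) and ETS (CCGGAAGT) motifs were each in at most 1.38% of either decile.

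**Figure D4:**
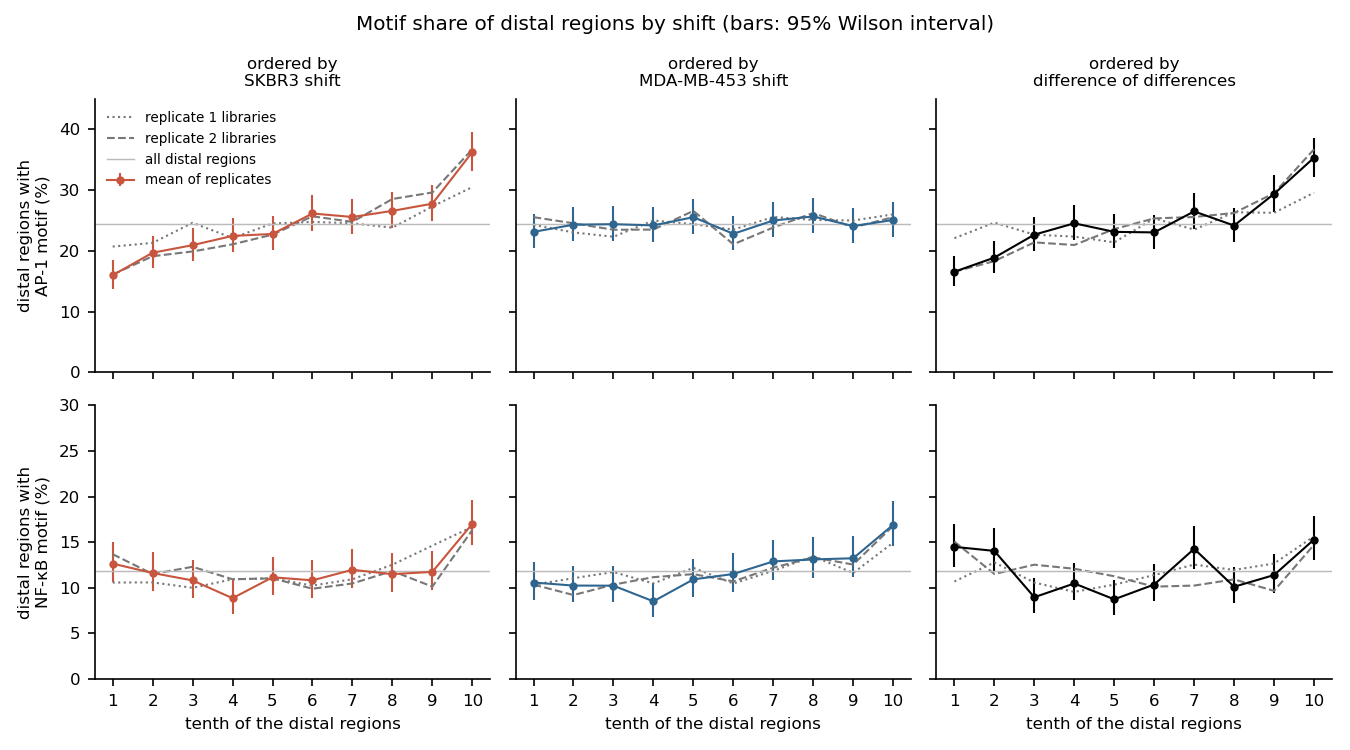
Percentage of distal regions with an AP-1 (top) or NF-κB (bottom) match in the 1000 bp window, by decile of the SKBR3 shift, the MDA-MB-453 shift and the difference of differences; points carry 95% Wilson intervals, dotted and dashed lines use replicate 1 or 2 libraries only, and the grey line is the share of all distal regions. AP-1 goes from 16.6% to 35.3% along the difference of differences and from 23.1% to 25.1% along the MDA-MB-453 shift.

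Regions picked in 1 replicate were then read in the other. The 500 regions with the highest difference of differences in the libraries numbered 1 had a median of 20.9 points in those numbered 2, and 82.8% of them were above 0, against 45.9% of all regions. Picked in the libraries numbered 2 and read in those numbered 1, the median was 15.4 points and 87.6% were above 0, against 48.8%. The 500 lowest regions carried over less, with medians of −8.87 and −4.94 points and 72.6% and 67.4% below 0 (54.1% and 51.2% of all regions). In all 4 readings the SKBR3 shift carried the difference, for the median MDA-MB-453 shifts where read lay between −0.237 and 1.08 points. Numbers do not tie a TWEAK library to an untreated one in the labels, so these 2 readings are only 1 way to form them.

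The gene lists were read at promoters, with 1 region per gene, and no member of any of the 18 lists passed the interaction test. Against the median of −3.24 points over all promoter regions, the list medians ran from −6.02 (cell cycle) to 1.88 (NF-κB effector genes). Of the 14 receptor and proximal signalling genes with a shared promoter region, 6 had a value above 0, against 31.0% of all promoter regions, and 1 had risen in SKBR3, as had 14 of the 9019 promoter regions. That gene was BIRC3, which encodes the ubiquitin ligase cIAP2 and is itself a known NF-κB target. Its 300-base promoter on chr11:102317234-102317533, plus strand, is given by RefSeq (GRCh38.p14) and is shown because it lies in the region and holds 2 NF-κB matches, in capitals.
BIRC3: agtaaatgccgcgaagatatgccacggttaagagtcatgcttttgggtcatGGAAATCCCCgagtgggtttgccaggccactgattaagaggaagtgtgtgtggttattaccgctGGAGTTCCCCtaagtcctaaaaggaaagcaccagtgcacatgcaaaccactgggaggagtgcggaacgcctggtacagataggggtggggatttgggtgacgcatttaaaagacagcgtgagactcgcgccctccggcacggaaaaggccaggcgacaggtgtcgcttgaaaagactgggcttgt
Among the 35116 RefSeq promoters of this length, 5.91% held at least 1 NF-κB match and 0.738% held 2 or more. The 1000 bp window around the midpoint of the BIRC3 region, used for the motif shares above, does not reach this promoter. That window held an AP-1 match and no NF-κB match. The BIRC3 region (chr11:102312176-102318982) had percentiles of 40.6 and 23.03 untreated and 77.0 and 86.3 with TWEAK in SKBR3 cells, and 37.3 and 30.3, then 42.9 and 48.3, in MDA-MB-453 cells. TWEAK libraries thus lay above untreated ones in both lines, further in SKBR3. The difference of differences was 38.0 ± 9.89 points (SE, limma adjusted p = 0.380), and 33.4 without SKBR3 TWEAK replicate 2. At the other end of the list was TRAF6, an adaptor of interleukin 1 and Toll-like receptor signalling, with −24.3 ± 10.7 points (limma adjusted p = 0.586), which was −14.7 without SKBR3 TWEAK replicate 2 and −33.9 without replicate 1.

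Among the effectors and regulators of NF-κB the members spread to both sides. The 15 NF-κB effector genes had 9 values above 0, where 31.0% of all promoter regions had such a value. CXCL16, a chemokine gene, went from 2.01 and 11.1 to 32.5 and 34.1 in SKBR3 cells and from 16.8 and 9.72 to 15.0 and 19.0 in MDA-MB-453 cells, a difference of differences of 22.97 ± 6.77 points (SE, limma adjusted p = 0.427). IRF1, an interferon-regulatory transcription factor gene, had 18.8 ± 9.03 points (limma adjusted p = 0.622). The 6 subunit genes had a median of −1.88, from −4.98 at REL to 2.26 at RELA. Of the 12 feedback inhibitor genes 3 had values above 0, a share near that of all promoter regions. CYLD, a deubiquitinase gene, had the highest (16.9 ± 10.0), and TNFAIP3, which encodes the inhibitor A20, the lowest (−16.2 ± 9.33, SE). At TNFAIP3 the MDA-MB-453 lists went from 14.4 and 18.8 to 26.7 and 30.04, while the SKBR3 groups overlapped. Several of these values turned on 1 library. TNFAIP3 was at −9.51 without SKBR3 TWEAK replicate 2 and −9.29 without SKBR3 untreated replicate 1, IRF1 at 10.3 without SKBR3 untreated replicate 2, and CYLD at 7.57 and 26.2 without MDA-MB-453 TWEAK replicates 1 and 2 and 10.5 without MDA-MB-453 untreated replicate 2.

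The AP-1 and MAP kinase genes come next. The 11 AP-1 family genes lay between −5.96 (ATF7) and 1.61 points (FOS), the narrowest range of the lists with over 10 genes, and 0 of them passed an unadjusted p of 0.05 in limma, which 1.5% and 5.13% of all promoter regions did in the positive and negative direction. In the JNK and MAPK cascade, with a median of −1.50 over 15 genes, MAP2K4, a kinase that activates JNK, had −28.9 ± 15.5 points (SE). SKBR3 TWEAK replicate 2 was at 18.3 there and the other 3 SKBR3 libraries at 42.4 to 64.0, and without it the value was −13.99. Without SKBR3 untreated replicate 1 it was −18.1, and without SKBR3 TWEAK replicate 1 −43.8. The small MAF and NRF2 list (median −1.48) ran from −19.8 at BACH1, a repressor, to 14.8 at SLC7A11, the cystine transporter gene. BACH1 was at −7.54 without SKBR3 TWEAK replicate 2, −31.99 without TWEAK replicate 1 and −12.01 without MDA-MB-453 TWEAK replicate 1, and SLC7A11 at 27.6 and 1.90 without SKBR3 untreated replicates 1 and 2. NAD genes had a median of −3.98, with 2 of 10 negative at an unadjusted p under 0.05. These were PARP1, the poly(ADP-ribose) polymerase gene (−20.7 ± 8.18), and NMNAT1, which makes NAD in the nucleus (−10.7 ± 4.14, SE). The NMNAT1 region also covers the start of LZIC. Its shift was in MDA-MB-453, from 66.2 and 66.4 to 80.8 and 81.7.

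Epithelial and cell cycle genes held the other large values. CDKN1A, which encodes the kinase inhibitor p21, went from 62.7 and 54.1 to 77.3 and 82.6 in SKBR3 cells and from 50.6 and 64.6 to 45.6 and 45.6 in MDA-MB-453 cells. The lines separated in opposite directions, and the difference of differences was 33.5 ± 8.40 points (SE, limma adjusted p = 0.350), in a list whose other 11 members had values from −16.1 to 5.29. ITGB6, an epithelial integrin gene, had 24.4 ± 7.39 points (limma adjusted p = 0.442) and ITGA2, a collagen receptor subunit, 19.1 ± 8.78, which was 10.2 without SKBR3 TWEAK replicate 2. GRHL1, a grainyhead transcription factor of epithelia, had 17.99 ± 4.77 points, and F11R, which encodes the junctional adhesion molecule JAM-A, 12.01 ± 2.81. GRHL1, F11R, ITGB6 and CDKN1A each separated upward in SKBR3 and downward in MDA-MB-453, as 608 of all 17704 regions (3.43%) did. On the other side SPDEF, a luminal ETS factor, had −13.9 ± 5.90 points and EPCAM −15.3 ± 11.3, which was −28.2 and −2.38 without SKBR3 TWEAK replicates 2 and 1. The 15 epithelial junction genes had a median of −2.12, and the 13 luminal transcription factor genes of −1.50. The members of the apoptosis list (median −0.569), the MHC class I and interferon list (0.870), sterol and lipid synthesis (1.03) and ERBB receptors and ligands (0.0784) all lay between −10.3 and 11.4 points. Integrins and kinesins had a median of 0.501. The 30 cytosolic ribosomal protein genes had a median of −2.98, close to that of all promoters, with RPS19 lowest (−23.4 ± 5.16, SE). Of the mesenchymal transition genes only TGFBR1 had a shared promoter region (−5.39).

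**Figure D5:**
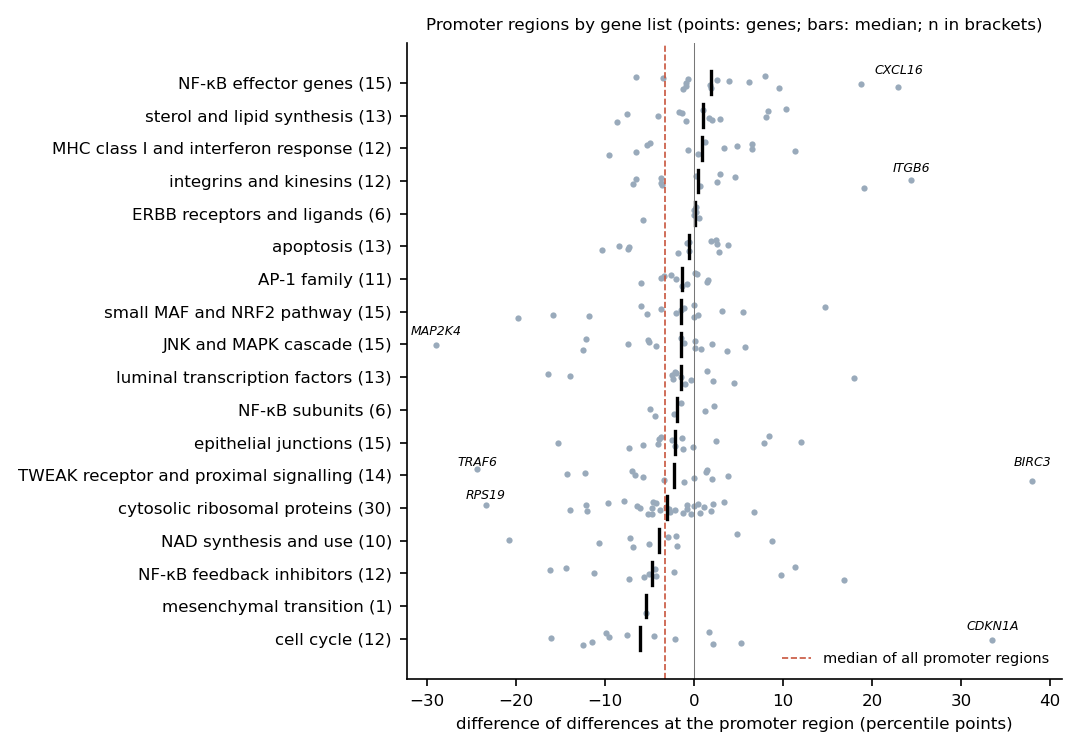
Difference of differences at the promoter region (x axis, percentile points) of each gene in 18 lists, with 1 point per gene and a black bar at the list median; the dashed line marks the median of all promoter regions, −3.24. BIRC3 at 38.0 and CDKN1A at 33.5 lie furthest to the right, MAP2K4 at −28.9 furthest to the left.

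The genes tied to the study were read here at their promoter regions only, and no large difference between the lines was found there. Each difference of differences given below with an SE was smaller than that SE, so smaller differences could be missed. Distal regions near NAMPT are described among the other observations. TNFRSF12A, the receptor gene, had percentiles of 86.2 and 86.2 untreated and 89.6 and 91.7 with TWEAK in SKBR3 cells, and 66.7 and 63.0, then 65.1 and 71.0, in MDA-MB-453 cells. The difference of differences was 1.32 ± 4.38 points (SE, limma adjusted p = 0.956). NFKB2, which encodes p100 and p52 of the non-canonical branch, went from 80.5 and 74.9 to 91.1 and 88.7 in SKBR3 cells and from 61.2 and 64.9 to 75.7 and 72.3 in MDA-MB-453 cells. Its shifts of 12.2 and 10.95 points were alike in size, and the difference was 1.24 ± 4.67. NAMPT, the rate-limiting enzyme of NAD salvage, lay between 96.2 and 98.6 in SKBR3 and between 78.1 and 82.0 in MDA-MB-453 cells, with −1.93 ± 2.58 points. MAFG had 5.51 ± 6.25, RELB −1.48 ± 2.38, ITGAV −3.60 ± 7.83 and KIF18A −3.72 ± 4.57 points. ERBB2 was at 99.96 or above in all 8 lists, so no shift could show there.

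The presence rule itself removed weak regions. Among every region of its list, a shared region had a median percentile of 70.05 to 75.3 depending on the library. The 1990 regions held by exactly 7 lists, just outside the rule, had medians of 33.7 to 41.4 in the lists that held them. The list that lacked them was most often SKBR3 untreated replicate 1 (552 regions). A region that TWEAK created or removed in 1 line cannot be in this set, so the shifts here are those of regions acetylated throughout.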

How the data were processed

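H3K27ac ChIP-seq was measured in 8 libraries, 4 groups of 2. The authors trimmed reads with Trimmomatic, aligned them to hg38 with Bowtie2, called peaks with MACS2 against input and removed blacklisted regions; versions are not given in the sources used here, and the inputs were not analysed here. The deposited score (column 5) is the whole part of 10 times the deposited −log10 q-value, and the deposited fold enrichment, a ratio over background, was also made by the authors with MACS2. Peaks were called per library. The lists hold no read counts, so depth and its precision are unknown, and the DiffBind analysis the study used, which needs reads, was not repeated.

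Peaks overlapping by at least 1 bp were merged, the highest score per region and list was turned into a percentile, and 4 groups were fitted in limma 3.58.1 (R 4.3.3; eBayes with trend, Benjamini-Hochberg over all 17704 regions, adjusted p under 0.05). The score rises with depth and enrichment, and ranks are relative within a list. Scripts ran in Python 3.11.15 with numpy 2.4.6, pandas 2.3.3, scipy 1.17.1, matplotlib 3.10.9 and pysam 0.24.0. The fit was also run on simulated percentiles with independent noise and planted shifts, which were not ranked again. Those data held no library that stood apart, so that run is no check of the fit in such a case. TSS came from GENCODE 44. Motifs were searched in 1000 bp around the midpoint.

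The members and gene lists were chosen with earlier results of these data known. Named regions were the 10 highest and 10 lowest among interaction calls, filled by moderated t where fewer were called, with the nearest protein-coding TSS; genes were the 2 highest and 2 lowest per list, each member called, and 8 genes tied to the study. Alternatives were the fold enrichment, log2 scores, ranks among every region, 50% overlap, merging over 1 kb, a q threshold of 1e-05, a replicate block, array weights, no variance trend and leaving out each library. Ranking promoter and distal regions separately, ranking within 20 GC classes and fitting each line alone were added after the data were seen.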

Additional observations from a re-analysis of the deposited data

Results flagged for a closer look

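In the following results every TWEAK library lay on one side of every untreated library in SKBR3 and on the opposite side in MDA-MB-453. The interaction was tested in each with limma and passed the adjusted threshold in none. Among the named regions the difference of differences was 51.8 points near KIAA1671, upward in SKBR3, and −37.5 near DIS3L2, −35.0 near CCDC146, −31.4 near SSX2IP, −30.3 near HIC1, −24.8 near GFM1, −15.7 near IFT81 and −10.0147 near C1orf174, all downward in SKBR3.

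Among the listed genes the promoter regions of CDKN1A (33.5), ITGB6 (24.4), GRHL1 (17.99) and F11R (12.01) went up in SKBR3 and down in MDA-MB-453. Those of TRAF6 (−24.3), RPS19 (−23.4), PARP1 (−20.7), CDKN2C (−16.1) and TGFBR1 (−5.39) went down in SKBR3 and up in MDA-MB-453. With 2 libraries per group, such opposite separation was present at 608 (3.43%) and 713 (4.03%) of the 17704 regions in these directions. The results above were flagged by that pattern, so they show no excess of it among the named regions or listed genes.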

How the results depend on the processing

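The 0 calls of the interaction in either direction held under every alternative that kept all 8 libraries. Leaving out 1 library gave 0 to 182 calls with a larger SKBR3 shift and 0 to 74 with a larger MDA-MB-453 shift, the highest values without SKBR3 TWEAK replicate 1, and 3 and 1 without SKBR3 untreated replicates 1 and 2. The cause was not tested.

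The 137 calls in SKBR3 became 57 when ranked among every region, 19 at 50% overlap (6597 regions tested), 61 at the stricter threshold (10576 tested), 22 with array weights, 66 without a variance trend and 0 with the line fitted alone. They ranged from 9 to 1754 without 1 library: 302 without SKBR3 untreated replicate 1, 13 without untreated replicate 2, 1754 without TWEAK replicate 1, 22 without TWEAK replicate 2, and 9 or 10 without any MDA-MB-453 library. The 0 calls in MDA-MB-453 became 1 on the log2 scale, 35 with array weights and 3 with the line fitted alone, and stayed at 0 in each leave-out.

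With the replicate block there were 337 calls in SKBR3. The labels share only numbers: replicate deviations of untreated and TWEAK libraries correlated at 0.448 in SKBR3 and −0.0613 in MDA-MB-453.

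Named regions kept their direction in 354 of 354 alternatives. They were chosen for extreme values in these same libraries, so a kept direction was nearly fixed by that choice and is no support. The promoter region of B2M went from −9.57 to 1.26 without SKBR3 TWEAK replicate 2 (−20.4 without replicate 1), and in 42 other alternatives a promoter value within 1 SE of 0 changed sign. Of the list medians 86 of 379 alternatives moved beyond the spread of replicates, and of the motif shares 20 of 80. Read depth, which is unknown, sets which weak regions a list can hold.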

Other observations

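Values outside the comparisons concern MDA-MB-453. With array weights, 10 regions rose and 25 fell in that line, and these were looked at after the calls were seen. Besides TCF20 and NFKBIE, a promoter region of KLHDC7B went up in both lines, from 77.5 and 70.1 to 97.0 and 99.1 in SKBR3 cells and from 9.76 and 11.9 to 31.4 and 43.0 in MDA-MB-453 cells. The promoter region of DDIT4, an inhibitor of mTORC1 that is induced by stress, went from 83.6 and 79.9 to 63.4 and 68.8 in MDA-MB-453 cells, while the SKBR3 groups overlapped. A region 19.9 kb from the TSS of HES1, a Notch target gene, went from 77.9 and 80.4 to 63.9 and 69.0 in MDA-MB-453 cells. At the promoter of CSRP1, which encodes a LIM protein, the MDA-MB-453 values went from 89.6 and 92.2 to 80.6 and 82.0, while all SKBR3 values lay between 97.5 and 99.1.

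NAMPT has a shared distal region 25.7 kb from its TSS (chr7:106311670-106314738), also picked after its values were seen. It had 30.4 and 39.6, then 50.2 and 66.0, in SKBR3 cells and 8.62 and 2.17, then 3.14 and 0.370, in MDA-MB-453 cells, a difference of differences of 26.7 ± 8.82 points (SE, limma adjusted p = 0.486). Another shared distal region, 66.5 kb from the TSS (chr7:106215850-106218047), had −8.79 ± 7.82 points (limma adjusted p = 0.794) and an SKBR3 shift of −7.80.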
